A study of Homo sapiens with 12 samples.

Results

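Of 19974 protein-coding genes on chromosomes 1 to 22 and X, 4016 carried H3K4me1 without H3K27ac at their ends in Huh7 cells, which is 20.1% (95% interval 19.6 to 20.7). Such a gene had an H3K4me1 summit within 1 kb of one of its annotated ends in the lists of both choline doses. It had no H3K27ac summit within 2 kb of either end in the list of either dose. The genes were thus chosen by the presence and absence of summits in these 4 lists, so their marks at the ends are a description and were not tested. Huh7 is a human hepatocellular carcinoma line, labelled wild type. The cells were kept for 48 h with 15 µM or 0 µM choline in DMEM made without choline, and at both doses B-27 took the place of 10% fetal bovine serum. The study asked how choline supply alters histone marks and transcription of liver cancer cells, with the transcription factor KLF5 at its centre. Each mark and dose had 1 library, so every difference between doses is one between 2 libraries, has no replicate check and is given with no p-value.

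H3K4me1 is the single methylation of lysine 4 on histone H3, laid down mainly by the enzymes KMT2C and KMT2D. H3K27ac is the acetylation of lysine 27 on the same histone, placed by EP300 and CREBBP at active promoters and enhancers. Elements with H3K4me1 and no H3K27ac are called primed, and those that also carry H3K27me3 from the Polycomb complex are called poised. At an active promoter the start itself carries H3K4me3, and H3K4me1 lies on its flanks. H3K27me3 and H3K4me3 were not measured in the lists used here, so primed, poised and silent ends could not be told apart.

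The label was first checked against markers. All 16 hepatocyte markers, among them ALB, AFP, APOB and HNF4A, had H3K27ac at an end at both doses. By the rule, 0 of them could thus belong to the genes described here. Counts of H3K27ac summits within 50 kb of their ends came to 289 with 15 µM choline and 229 with 0 µM. Windows of neighbouring markers such as FGA, FGB and FGG overlap, so a summit may be counted more than once. The markers of other cells were mixed. PTPRC and CD3D of lymphocytes, CD14 of myeloid cells, DCN and COL1A1 of fibroblasts and stellate cells, and SYT1 and TUBB3 of neurons carried H3K4me1 without H3K27ac. CD3E of lymphocytes, LYZ and CD68 of myeloid cells, PECAM1 of endothelium and SNAP25 of neurons had H3K27ac at an end in one list or both. Of the 4 endothelial markers 0 carried H3K4me1 without H3K27ac. Muscle markers had 0 H3K27ac summits within 50 kb at either dose. For H3K27ac the authors listed 29305 summits with 15 µM choline and 37946 with 0 µM. For H3K4me1 they listed 349202 with 15 µM and 343156 with 0 µM, with a lowest score of 1.30 at 15 µM and 1.31 at 0 µM, against 5.01 in both H3K27ac lists. Over all genes the median number of H3K4me1 summits within 10 kb of an end was 6 at each dose, so the lists are dense. H3K4me1 thus entered its lists at lower scores than H3K27ac, and with H3K4me1 scores of at least 5 the 4016 genes came down to 855.

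In 56 of these genes the H3K4me1 summits of both lists fell inside the RefSeq promoter window, which runs from 250 bases before the annotated start to 50 after it. The 4 on different chromosomes whose H3K4me1 summit at either end ranked highest are shown. They differ in base composition, which played no part in the choice. The windows are from RefSeq on GRCh38.p14, 5′ to 3′ on the strand of the gene, with every CpG in capitals. They are OXTR at chr3:8769564-8769863 on the minus strand, RASGRP3 at chr2:33436098-33436397 on the plus strand, CPA1 at chr7:130380244-130380543 on the plus strand and CPN1 at chr10:100081820-100082119 on the minus strand.
OXTR: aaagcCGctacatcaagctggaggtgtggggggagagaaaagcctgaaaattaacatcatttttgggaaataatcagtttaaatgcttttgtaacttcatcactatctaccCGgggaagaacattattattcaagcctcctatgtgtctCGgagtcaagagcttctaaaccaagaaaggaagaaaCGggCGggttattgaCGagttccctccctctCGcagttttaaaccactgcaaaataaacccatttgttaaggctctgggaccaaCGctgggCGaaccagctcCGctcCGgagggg
RASGRP3: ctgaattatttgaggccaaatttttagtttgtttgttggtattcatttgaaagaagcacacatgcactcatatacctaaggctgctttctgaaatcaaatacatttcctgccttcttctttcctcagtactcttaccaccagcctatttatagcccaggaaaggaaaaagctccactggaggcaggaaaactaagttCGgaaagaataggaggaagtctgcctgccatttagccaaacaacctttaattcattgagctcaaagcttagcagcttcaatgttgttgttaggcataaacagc
CPA1: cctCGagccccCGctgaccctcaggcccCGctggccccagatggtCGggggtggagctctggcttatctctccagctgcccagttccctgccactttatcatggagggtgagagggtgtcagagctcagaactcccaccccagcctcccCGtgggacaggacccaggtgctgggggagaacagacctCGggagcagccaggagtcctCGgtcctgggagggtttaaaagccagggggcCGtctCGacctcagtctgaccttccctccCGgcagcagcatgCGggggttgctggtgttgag
CPN1: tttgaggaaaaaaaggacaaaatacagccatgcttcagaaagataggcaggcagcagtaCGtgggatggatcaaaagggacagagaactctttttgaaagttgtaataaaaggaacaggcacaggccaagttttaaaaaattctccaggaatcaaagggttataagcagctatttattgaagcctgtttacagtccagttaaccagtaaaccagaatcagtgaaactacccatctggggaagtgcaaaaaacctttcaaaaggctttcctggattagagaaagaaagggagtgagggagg

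OXTR, the oxytocin receptor, had 11 CpGs in this window and a ratio of observed to expected CpG of 0.684. CPA1, a carboxypeptidase of the pancreas, also had 11, but in a window of 65.7% G and C, so its ratio was 0.340. RASGRP3, an activator of RAS made in lymphocytes, and CPN1, the catalytic subunit of the plasma carboxypeptidase N, had 1 CpG each. Their ratios were 0.0852 and 0.0851. At RASGRP3 the H3K4me1 summits lay 142 bases before the start at 15 µM and 148 before it at 0 µM. Both had high scores, 20.3 at 15 µM and 14.5 at 0 µM. At CPN1 they lay 233 bases before the start at 15 µM and 174 before it at 0 µM. At OXTR the summits of the window, 137 bases before the start at 15 µM and 143 at 0 µM, had scores of only 3.63 at 15 µM and 1.54 at 0 µM, and its highest summits lay at the other end. The nearest H3K27ac summit to an end of RASGRP3 was 94238 bp away at 15 µM and 8502 bp away at 0 µM. For CPN1, a gene that normal liver expresses, it was 104688 bp away at 15 µM and 19621 bp away at 0 µM.

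Each step of the rule removed a large share. At 15 µM 10563 genes (52.9%, 52.2 to 53.6) and at 0 µM 10314 genes (51.6%, 50.9 to 52.3) had an H3K4me1 summit within 1 kb of an end. Both lists had one at 7315 genes, which is 69.3% of those at 15 µM and 70.9% of those at 0 µM. Of the 7315, 3299 had H3K27ac within 2 kb in one list or both, and 4016 (54.9%, 53.8 to 56.0) had none. H3K27ac lay within 2 kb of 4039 genes at 15 µM and 6443 at 0 µM, and of 6939 in all. The remaining genes were 3640 with H3K27ac but not H3K4me1 in both lists, 3888 with H3K4me1 in one list and no H3K27ac, and 5131 with neither mark.

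Just inside the H3K4me1 limit, 502 of the genes had their farther nearest summit 901 to 1000 bp from an end, the last being COL28A1, a collagen gene, at 1000 bp. Just outside, 492 genes lay at 1001 to 1100 bp, the first being MLX, a transcription factor of glucose sensing, at 1001 bp. At the other limit, CXCL16, a transmembrane chemokine, was inside with H3K27ac 2002 bp away at 0 µM, and MEIOSIN, a regulator of meiosis, outside with H3K27ac 2000 bp away at 15 µM. Between 2001 and 2200 bp there were 55 such genes, and between 1801 and 2000 bp there were 60 genes left out. Numbers were similar on both sides of each limit, so each limit cut through a continuous distribution. Fewer genes lay near the H3K27ac limit.

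The mark lay mostly at the start of the gene. The strand was known for 3134 of the 4016 genes. H3K4me1 lay at the annotated start alone in 1849 of them (59.0%, 57.3 to 60.7), at the other end alone in 683 (21.8%, 20.4 to 23.3) and at both ends in 342 (10.9%, 9.84 to 12.1). In 260 (8.30%, 7.35 to 9.32) the lists marked different ends. Among 2742 genes with both marks, the start alone was marked in 47.3% (45.4 to 49.2) and the other end alone in 29.5% (27.8 to 31.3). The start-only share was thus higher without H3K27ac. Another gene ended within 1 kb of an end of 1136 of the 4016 (28.3%, 26.9 to 29.7), against 39.2% (37.6 to 40.9) of genes with both marks and 28.6% of all genes. At those ends the summit cannot be assigned to 1 gene. No exon, intron or UTR annotation was used.

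H3K4me1 without H3K27ac was of lower score than H3K4me1 at genes with both marks, and close to that over all genes. Each gene's highest summit within 1 kb was ranked among all summits of its own list, as the percentage of them with no higher score. The median of these percentiles was 61.6 at 15 µM and 65.9 at 0 µM, against 70.4 at 15 µM and 69.2 at 0 µM for genes with both marks. Over all genes with such a summit it was 59.8 at 15 µM and 65.9 at 0 µM. With H3K27ac but not H3K4me1 in both lists it was 49.3 at 15 µM and 55.7 at 0 µM. With H3K4me1 in one list and no H3K27ac it was 46.7 at 15 µM and 41.8 at 0 µM. The summit ranked at 90 or above in both lists in 138 of the 4016 genes (3.44%, 2.89 to 4.05) and in 298 of the 3299 with both marks (9.03%, 8.08 to 10.1). It ranked under 50 in both lists in 572 (14.2%, 13.2 to 15.4). Exactly 1 summit lay within 1 kb in 57.9% of the genes at 15 µM and 58.1% at 0 µM. The highest summits of the lists lay within 500 bp of each other in 2018 genes (50.2%, 48.7 to 51.8). The score is the authors' own, and these percentiles compare it only within a list.

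The highest-ranked ends belonged to genes of several kinds. C9, a component of the membrane attack complex of complement made by liver, reached percentile 99.7 at 15 µM and 99.6 at 0 µM, at the end away from its start. Its nearest H3K27ac summit was 36.6 kb away at 15 µM and 35.3 kb away at 0 µM. LFNG, a glycosyltransferase that modifies Notch receptors, reached 99.3 at 15 µM and 99.2 at 0 µM with its highest summit, and had a summit at each end. Around LFNG, H3K27ac lay 100.1 kb away at 15 µM and 6.86 kb away at 0 µM, and within 50 kb there were 0 summits at 15 µM and 5 at 0 µM.

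PER2, a repressor of the circadian clock, reached 98.9 at 15 µM and 99.0 at 0 µM. It had 10 (15 µM) and 6 (0 µM) H3K27ac summits no more than 50 kb away, the nearest 13.9 kb from an end at each dose. NCOA2, a coactivator of nuclear receptors, reached 99.5 at 15 µM and 98.6 at 0 µM. ACAP2, a GTPase-activating protein for ARF6, reached 98.3 at 15 µM and 99.4 at 0 µM. FAM184A, a coiled-coil protein gene, reached 98.9 at 15 µM and 98.1 at 0 µM. OXTR reached 97.9 at 15 µM and 98.2 at 0 µM, and its nearest H3K27ac summit was 195.8 kb away at 15 µM and 211.5 kb away at 0 µM. These ends ranked high in both lists. GOLGA6L9 belongs to a multicopy golgin family, so its percentiles of 99.1 at 15 µM and 99.4 at 0 µM are uncertain.

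Around the start, the shape of H3K4me1 differed with the CpG content of the promoter. CpG content was taken as the ratio of observed to expected CpG in the promoter window, with CpG-rich at 0.6 or above. The starts split in this way are those whose promoter window belongs to the outermost end of the gene. At the 665 CpG-poor starts with H3K4me1 and no H3K27ac, summits ran nearly evenly across the start. The density within 250 bp of it was 1.13 times that at 500 to 1000 bp at 15 µM and 1.10 times at 0 µM. At the 1260 CpG-rich starts the start was depleted, with ratios of 0.195 at 15 µM and 0.257 at 0 µM, and summits gathered on the flanks. Genes with both marks had a deeper hollow at CpG-rich starts, 0.100 at 15 µM and 0.119 at 0 µM over 1124 genes. At their 310 CpG-poor starts the ratio was 0.609 at 15 µM and 1.01 at 0 µM. Between 4 and 5 kb from the start, bins of 250 bp held 38.8 to 58.0 summits per 1000 genes at 15 µM and 37.9 to 52.0 at 0 µM over all 2191 marked starts. The rule required a summit within 1 kb, so the height there is set by the choice of genes and the shape inside it is not.

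**Figure D1:**
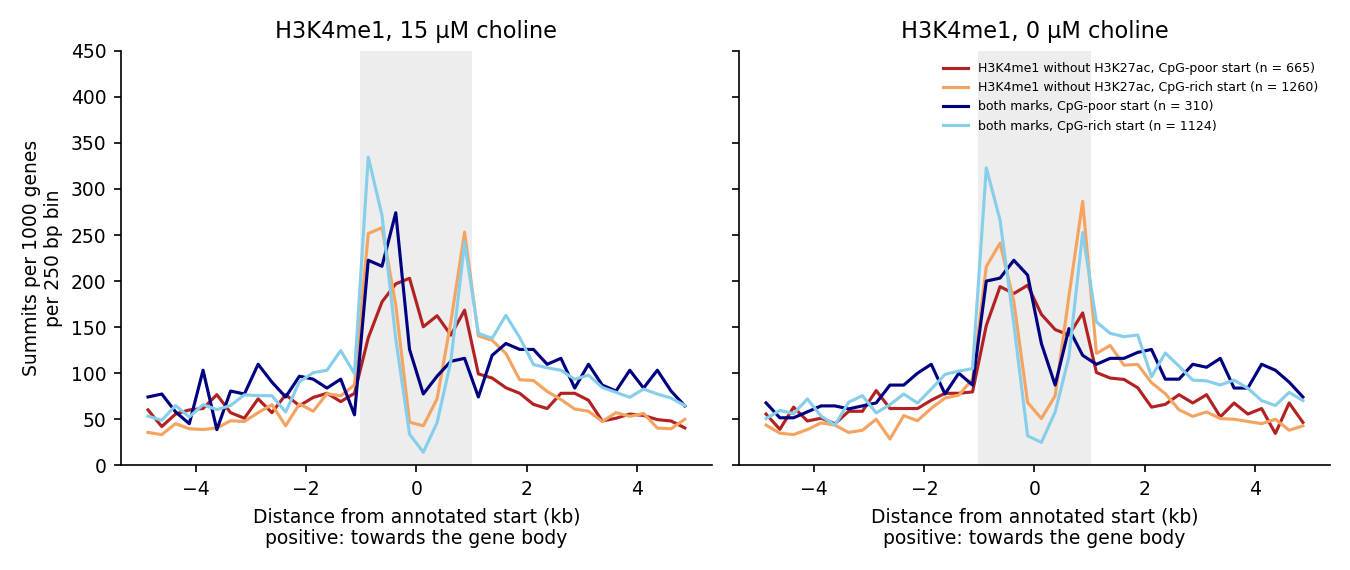
H3K4me1 summits per 1000 genes in bins of 250 bp around the annotated start at 15 µM choline (left) and 0 µM choline (right), for marked starts without H3K27ac (red, orange) and with it (dark and light blue), split by promoter CpG content. The grey band is the 1 kb that the rule used. At CpG-rich starts the centre is depleted, to 0.195 of the flank at 15 µM and 0.257 at 0 µM without H3K27ac, whereas at CpG-poor starts without H3K27ac it is not.

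The promoters were less often CpG-rich than those with H3K27ac. The median ratio of observed to expected CpG was 0.741 (0.730 to 0.752) over 3134 promoters, and 64.0% (62.3 to 65.7) were CpG-rich. With both marks 80.6% (79.1 to 82.1) were CpG-rich, and with H3K27ac but not H3K4me1 in both lists 87.9% (86.7 to 89.0). With H3K4me1 in one list and no H3K27ac the share was 62.0% (60.2 to 63.7), and over all genes 65.6%. The median ratio over all genes was 0.762, above the interval given for the genes with H3K4me1 alone. In CpG content these genes thus stood slightly below all genes and well below those with H3K27ac. Their median length was 23390 bp, against 26197 bp for genes with both marks. The promoter table matched 80.4% of the genes off chromosome 8 and held no gene of chromosome 8. Of genes with neither mark it matched 78.0%, and 41.1% (39.6 to 42.7) of the matched promoters were CpG-rich. With that coverage this share is given as a value only.

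CpG content fell with the rank of H3K4me1. Of genes whose highest summit ranked under 25 in its lower list, 67.8% (63.9 to 71.5) had a CpG-rich promoter. From rank 25 to 50 the share was 71.6% (68.6 to 74.4), from 50 to 75 it was 64.3% (61.2 to 67.3) and from 75 to 90 it was 48.4% (43.8 to 53.0). At rank 90 and above, 48 of 113 promoters were CpG-rich (42.5%, 33.2 to 52.1). The fall was therefore seen above rank 50. Genes with both marks ran from 90.1% (86.7 to 92.8) at ranks under 25 to 61.3% (54.7 to 67.5) at 90 and above, higher in each of the 5 ranges. These ranks take the mark at either end, so the highest may lie away from the promoter, as at C9. LFNG, marked at both ends, had a promoter ratio of 0.286, and PER2, also marked at both, one of 1.30. Genes at rank 90 and above thus had promoters of both kinds.

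**Figure D2:**
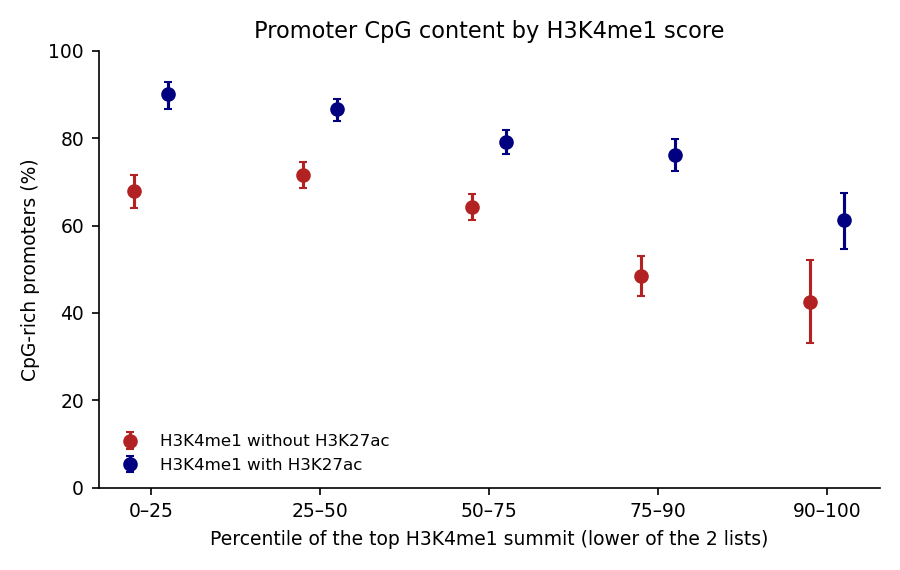
Share of CpG-rich promoters (%) by percentile of the highest H3K4me1 summit within 1 kb, taken from the lower of its ranks in the 2 lists, for genes without H3K27ac (red, left of each pair) and with it (blue); bars are exact 95% intervals for counting error. The red points run from 67.8% in the lowest range to 42.5% in the highest, each below its blue neighbour.

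The shares of short promoter motifs lay close to those of all promoters. For the GC box and the E-box they lay further from the shares with both marks. Each was searched on both strands of the 300-base windows. The GC box GGGCGG, bound by SP and KLF factors, was in 60.3% (58.6 to 62.0) of the 3134 promoters, against 66.4% (64.6 to 68.1) with both marks and 58.3% of all promoters. The CACCC box GGGTGG, also bound by KLF factors, was in 38.4% (36.6 to 40.1), against 37.4% with both marks and 37.2% of all. OXTR held 1 GC box and CPA1 held 2 CACCC boxes in the windows printed above. The E-box CANNTG was in 64.9% (63.2 to 66.5), against 59.6% with both marks and 64.6% of all. The TATA box TATAAA was in 8.42% (7.47 to 9.45), against 7.55% with both marks and 9.75% of all, and RASGRP3 held 1. TGTTTAC, the FOXA motif, was in 2.68% (2.14 to 3.31), against 2.81% with both marks and 2.68% of all, and CPN1 held 1. The interval lay above the share of all promoters for the GC box and below it for the TATA box. The intervals included the share of all promoters for the CACCC box, the E-box and the FOXA motif. So they did for the HNF4 motif CAAAGTCCA, in 0.479% (0.268 to 0.788), the NF-Y motif CCAAT, in 36.1%, the POU octamer ATTTGCAT, in 1.44%, and the CRE TGACGTCA, in 2.43%. None of the 9 motifs contains another. A match says only that the letters are there.

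Gene families were unequally represented against the 20.1% of all genes. In 3 of 30 families the 95% interval lay above that share, in 7 it lay below, and in the others it included it. The intervals treat family members as independent, although many are neighbours. The families were chosen with earlier results of these data known.

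Developmental transcription factors, many of which specify tissues in the embryo and are classic Polycomb targets, were in excess. Genes were taken by family and not by role, so factors such as FOXO1, FOXO4, FOXK1 and FOXN3 are counted. Of 227 homeobox, PAX, SOX, FOX, T-box, GATA and POU factors, 66 carried H3K4me1 without H3K27ac (29.1%, 23.3 to 35.4), and 41 had H3K27ac. Among them were 12 of 39 HOX genes, 13 of 45 FOX genes, 4 of 19 SOX genes, 3 of 9 PAX genes and 3 of 6 GATA genes. No interval was computed for these smaller groups, so no excess is read from any of them. Some of the HOX genes are neighbours. HOXC11, a regulator of posterior body and limb identity, ranked at percentile 90.2 at 15 µM and 93.8 at 0 µM. HOXC12 ranked at 81.1 at 15 µM and 88.2 at 0 µM. These were the highest of the family, in which the median lower rank was 46.7. SOX2, a factor of pluripotency and neural progenitors, ranked at 46.7 at 15 µM and 75.2 at 0 µM, with H3K27ac 1002081 bp away at 15 µM and 137275 bp away at 0 µM. PAX6, a regulator of eye and pancreas, ranked at 60.2 at 15 µM and 52.2 at 0 µM, with H3K27ac 334632 bp away at 15 µM and 278745 bp away at 0 µM. The excess over all genes was 8.97 percentage points, and with H3K4me1 scores of at least 5 it was 0.125 points, with 10 of 227 genes left. At those scores its share was thus close to that of all genes.

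Of 43 tissue-specific basic helix-loop-helix factors 10 were marked (23.3%, 11.8 to 38.6), an interval that included the share of all genes, and 0 had H3K27ac at an end. TAL1, a regulator of blood stem cells, ranked at 83.7 at 15 µM and 92.2 at 0 µM. BHLHA15, a factor of secretory cells, ranked at 75.4 at 15 µM and 90.9 at 0 µM. The neural factors ATOH1 and NEUROG2 were also among the 10. Of the liver's own 22 factors, 19 had H3K27ac at an end (86.4%, against 34.7% of all genes). H3K4me1 alone was at 2 (9.09%, 1.12 to 29.2), an interval that also included the share of all genes. The 2 were NR1I2, the xenobiotic receptor PXR, and GATA4, a factor of heart and endoderm. GATA4 ranked at only 8.43 at 15 µM and 4.93 at 0 µM, with 14 H3K27ac summits at 15 µM and 17 at 0 µM no more than 50 kb away. Of 27 KLF and SP factors, the family of KLF5, 5 were marked alone (18.5%, 6.30 to 38.1) and 11 had H3K27ac. That interval included the share of all genes. Marked alone were SP9, SP5, KLF11, KLF2 and KLF4. Their H3K4me1 summits within 10 kb came to 34 at 15 µM and 45 at 0 µM. SP5 had 6 at each dose, and the other 4 had fewer at 15 µM. None of the 5 was counted with a 2-fold difference, which needed at least 4 summits in the higher list. As listed, such counts were lower at 15 µM in 1587 of the 4016 genes and in 7424 of all 19974.

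**Figure D3:**
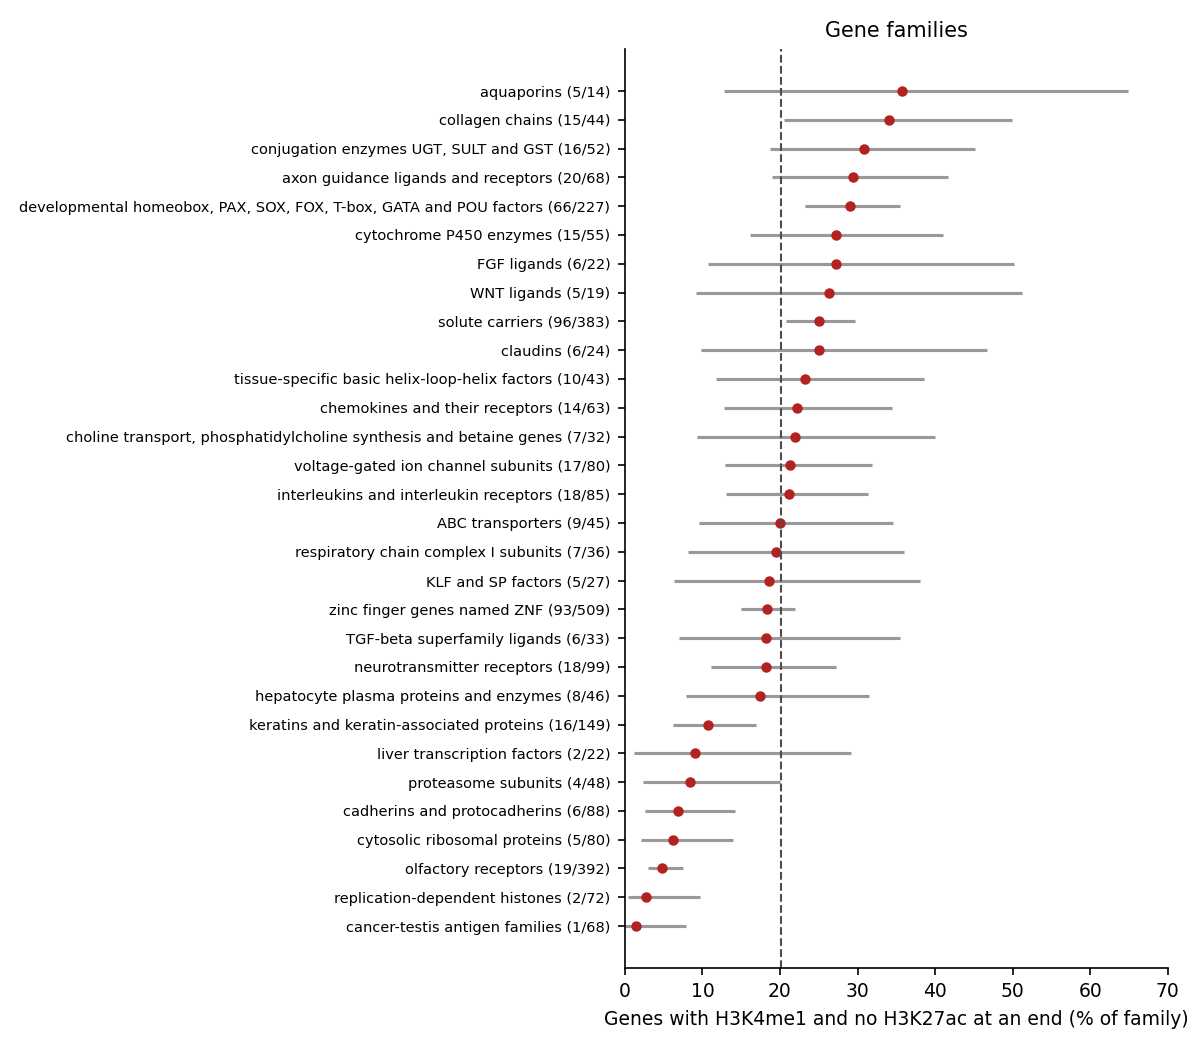
Share of each gene family that carried H3K4me1 without H3K27ac at an end (%), with exact 95% intervals for counting error and the number of genes in brackets; the dashed line is the 20.1% of all genes. Collagens, developmental factors and solute carriers lie to the right with their whole interval, and 7 families from keratins to cancer-testis antigens lie to the left.

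Among secreted and matrix proteins, collagen chains stood highest with a whole interval above all genes. Of 44 chains, 15 were marked alone (34.1%, 20.5 to 49.9) and 4 had H3K27ac. COL28A1 ranked at 97.0 at 15 µM and 97.8 at 0 µM. COL16A1, a fibril-associated chain, ranked at 81.1 at 15 µM and 90.2 at 0 µM, with H3K27ac 200.9 kb away at 15 µM and 7.08 kb away at 0 µM. The fibrillar chains COL1A1, COL2A1 and COL3A1 were also among the 15. With H3K4me1 within 500 bp of an end 4 chains were left, 1.35 points above all genes. Growth factors had shares whose intervals included that of all genes. WNT ligands had 5 of 19, FGF ligands 6 of 22 and TGF-beta ligands 6 of 33. LEFTY1, an antagonist of Nodal in left-right patterning, ranked at 91.3 at 15 µM and 92.2 at 0 µM, the highest among these ligands, with H3K27ac 3.74 kb away at 15 µM and 2.39 kb away at 0 µM. FGF21, a hormone that liver secretes in fasting, had H3K27ac 49.2 kb away at both doses.

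Solute carriers, the membrane transporters, had 96 of 383 marked alone (25.1%, 20.8 to 29.7) and 126 with H3K27ac. SLC9A2, a sodium-proton exchanger, ranked at 91.5 at 15 µM and 92.2 at 0 µM. SLC28A1, a nucleoside transporter of liver and kidney, ranked at 89.1 at 15 µM and 92.6 at 0 µM, and had 13 (15 µM) and 12 (0 µM) H3K27ac summits no more than 50 kb away. The bile acid transporter SLC10A1 and the citrate transporter SLC13A5, both of the hepatocyte membrane, were among the 96. In the other 3 settings tried for families the excess was 0.941 to 2.58 points, with an interval that included the share of all genes.

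Genes of liver metabolism were split between the classes. Of 46 plasma proteins and enzymes of the hepatocyte, 29 had H3K27ac at an end and 8 carried H3K4me1 alone (17.4%, 7.82 to 31.4). ASS1, the urea cycle enzyme that makes argininosuccinate, ranked at 96.2 at 15 µM and 92.7 at 0 µM, at the end away from its start. APOA5, a regulator of plasma triglycerides, ranked at 87.2 at 15 µM and 87.8 at 0 µM, with 12 H3K27ac summits at 15 µM and 9 at 0 µM no more than 50 kb away. Its neighbour APOA4 had H3K27ac 5235 bp away at 15 µM and 3676 bp away at 0 µM. AMBP, the precursor of alpha-1-microglobulin, had H3K27ac 2345 bp away at 15 µM and 2504 bp away at 0 µM, just beyond the limit. SERPINC1, which encodes antithrombin, the clotting factor gene F10, and ITIH1 and ITIH4, which encode chains of plasma protease inhibitors, made up the rest. ITIH4 had H3K27ac 517225 bp away at 15 µM and 89374 bp away at 0 µM. These plasma protein genes thus ranged from the edge of an acetylated region to places far from one.

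Of 55 cytochrome P450 enzymes, 15 were marked alone (27.3%, 16.1 to 41.0) and 11 had H3K27ac. CYP2C8, a drug oxidase of adult liver, ranked high at both doses, at 93.8 at 15 µM and 92.2 at 0 µM. CYP3A4, the main drug oxidase of adult liver, ranked at 0.364 at 15 µM and 66.1 at 0 µM, with summits at different ends. CYP7A1, the rate-limiting enzyme of bile acid synthesis, had 6 H3K4me1 summits at 15 µM, against 1 at 0 µM, within 10 kb, with H3K27ac 680922 bp away at 15 µM and 680965 bp away at 0 µM. The conjugating UGT, SULT and GST enzymes had 16 of 52 (30.8%, 18.7 to 45.1). SULT1A3 and SULT1A4 among them are near-identical copies, so their summits are uncertain.

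Of 32 genes of choline transport, phosphatidylcholine synthesis and betaine use, 7 were marked alone (21.9%, 9.28 to 40.0), close to the share of all genes, and 20 had H3K27ac. The 7 were PCYT1B, SLC22A2, BHMT, MTR, SLC44A4, SLC44A3 and GNMT. PCYT1B, an isoform of the rate-limiting enzyme of phosphatidylcholine synthesis, ranked at 92.6 at 15 µM and 87.8 at 0 µM. It lay 353163 bp from H3K27ac at 15 µM and 342214 bp at 0 µM. SLC22A2, an organic cation transporter that carries choline in kidney, had H3K27ac 4074 bp away at 15 µM and 2936 bp away at 0 µM. BHMT, the betaine-using methyltransferase of liver, had H3K27ac 17650 bp away at 15 µM and 41128 bp away at 0 µM. MTR, the methionine synthase that uses folate, had H3K4me1 at both ends and H3K27ac 277443 bp away at 15 µM and 275423 bp away at 0 µM. GNMT, a liver methyltransferase that uses up S-adenosylmethionine, had 0 (15 µM) and 2 (0 µM) H3K27ac summits no more than 50 kb away. Their H3K4me1 summits within 10 kb came to 54 at 15 µM and 53 at 0 µM. The doses thus gave nearly the same sum.

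The families below the average were of 2 kinds. In one, most genes had H3K27ac. Of 80 cytosolic ribosomal proteins 5 were marked alone (6.25%, 2.06 to 14.0) and 65 had H3K27ac, of 72 replication-dependent histones 2 and 57, and of 48 proteasome subunits 4 and 32. RPL10A was one of the 5, with H3K27ac 407.7 kb away at 15 µM and 39.5 kb away at 0 µM, a part of the ribosome that growing cells need. Transcription of these genes was not analysed here. In the other kind most genes had neither mark. Of 392 olfactory receptors 19 were marked alone (4.85%, 2.94 to 7.47) and 324 had neither mark, of 88 cadherins and protocadherins 6 and 52, and of 149 keratins and keratin-associated proteins 16 and 94. Of 68 cancer-testis antigen genes 1 was counted. It was SSX2IP, which is matched by its name only and encodes a centrosome protein. The rule leaves out genes with H3K27ac and genes without H3K4me1, so families of either kind could hold few of the genes described here. For keratins and proteasome subunits the interval included the share of all genes in each of the other 3 settings tried, and for ribosomal proteins and cadherins in 2 of the 3.

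Neighbouring genes shared the state more often than other genes had such a neighbour. Of the 4016, 1986 (49.5%, 47.9 to 51.0) had another of them as a neighbouring protein-coding gene on the chromosome, against 32.1% (31.3 to 32.8) of the other genes. Where no other gene ended within 1 kb, the shares were 43.8% (42.0 to 45.6) of 2880 genes and 32.7% (31.8 to 33.5) of the other genes. The longest run was of 7 S100A genes on chromosome 1, from S100A6 to S100A14 (153534599 to 153616325, GRCh38.p14). S100A proteins bind calcium and are made in epithelia and migrating cells. This run and the next were chosen after their values were seen. S100A2 ranked at 96.9 at 15 µM and 95.5 at 0 µM, and S100A4 at 90.2 at 15 µM and 90.3 at 0 µM. The nearest H3K27ac summit was 97740 bp from S100A6 at 15 µM and 91464 bp at 0 µM. From S100A14 it was 17406 bp away at 15 µM and 11130 bp at 0 µM. In each list these distances point to the same summit, which lay beyond S100A14, so they are not separate observations.

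A run of 6 entries covered HOXA6 to HOXA11 on chromosome 7 (27145396 to 27185232). One of them is HOXA10-HOXA9, a readthrough of its neighbours, so the run holds 5 separate genes. HOXA genes give positional identity along the body axis. HOXA6 lay 3331 bp from H3K27ac at 15 µM and 16630 bp from it at 0 µM, and HOXA11 39092 bp at 15 µM and 52391 bp at 0 µM. H3K27ac within 50 kb of HOXA10 came to 4 summits at each dose. Around HOXA10 there were 15 H3K4me1 summits at 15 µM, against 23 at 0 µM, within 10 kb, and around HOXA11 10 at 15 µM and 16 at 0 µM. In each list the distances from HOXA6 and HOXA11 point to the same H3K27ac summit, which lay beyond HOXA6. That summit was nearer to the run at 15 µM, while the counts of H3K4me1 around HOXA10 and HOXA11 were lower. The windows of neighbouring HOXA genes overlap, so these are not separate observations.

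The number of H3K4me1 summits around these genes had the same median at both doses. Counted within 10 kb of either end, it was 7 at 15 µM and 7 at 0 µM. Of 3650 genes with at least 4 summits in the higher list, 183 (5.01%, 4.33 to 5.77) had at least 2-fold more at 15 µM, against 6.97% of all genes with that many. A further 219 (6%, 5.25 to 6.82) had at least 2-fold fewer, against 6.8% of all genes. Both shares were below those of all genes. The rule required a summit in both lists, which holds both counts above 0, so nothing is read from that. With scores of at least 5, 166 of 1112 genes (14.9%) had 2-fold more and 132 (11.9%) had 2-fold fewer at 15 µM. The shares of all genes were not computed at those scores, so nothing is read from these counts either. The counts as listed were higher at 15 µM in 1819 genes, equal in 610 and lower in 1587, against 8583, 3967 and 7424 of all genes. The longer 15 µM list was not allowed for in these 3 counts.

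Among the 5 genes furthest up were CABCOCO1, ERI3, TRIM2 and PCBP2. CABCOCO1, a cilium-associated calcium-binding protein gene, had 19 summits at 15 µM and 7 at 0 µM. ERI3, an exonuclease gene, had 16 at 15 µM and 5 at 0 µM. TRIM2, a ubiquitin ligase gene of neurons, had 18 at 15 µM and 7 at 0 µM. All 3 had more than 2-fold more at 15 µM.

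PCBP2, an RNA-binding protein gene, also past 2-fold, had 18 at 15 µM and 8 at 0 µM. The 5 furthest down were RAI14, SP100, SMU1, GRAMD2A and COMMD7. RAI14, an actin-binding protein gene, had 9 at 15 µM and 24 at 0 µM.

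SP100, a nuclear body protein gene induced by interferon, had 6 at 15 µM and 18 at 0 µM. SMU1, a splicing factor gene, had 5 at 15 µM and 17 at 0 µM. GRAMD2A, which encodes a protein of membrane contact sites, had 5 at 15 µM and 16 at 0 µM. COMMD7, which encodes a regulator of NF-κB, had 9 at 15 µM and 19 at 0 µM. All 5 were past the 2-fold limit. With scores of at least 5 only, the scaled difference changed sign for CABCOCO1, RAI14 and SMU1. For these 3 genes the difference thus came from summits of low score. For the other genes named here it kept its direction and was smaller. The scaled difference went from 10.9 to 1.04 for ERI3, from 10.9 to 2.08 for TRIM2 and from 9.86 to 3.12 for PCBP2. It went from -12.3 to -3.71 for SP100, from -11.3 to -2.88 for GRAMD2A and from -10.3 to -4.75 for COMMD7.

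**Figure D4:**
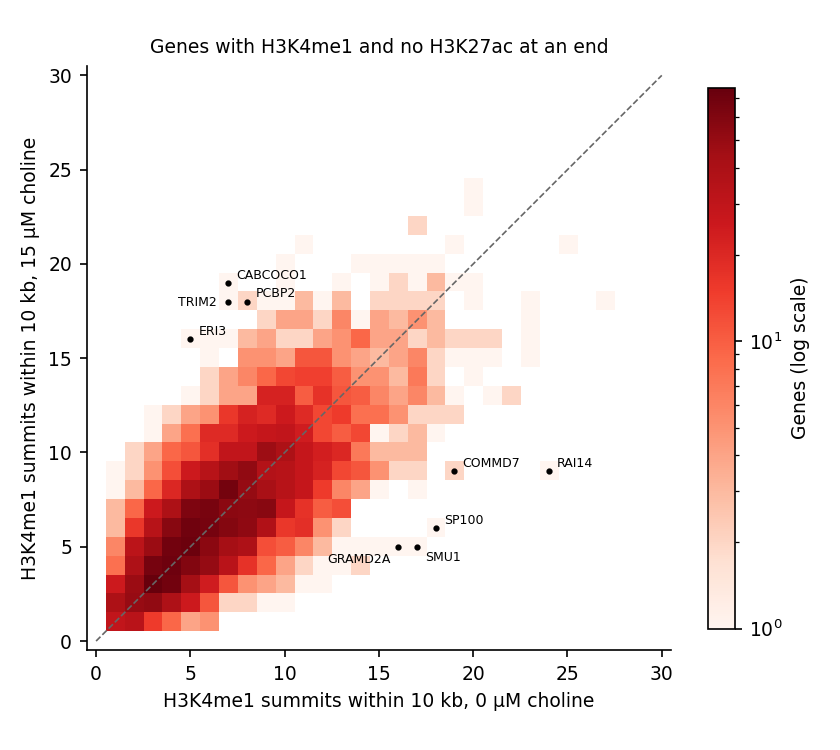
Number of H3K4me1 summits within 10 kb of a gene end at 15 µM choline (vertical) and 0 µM choline (horizontal) for the 4016 genes, coloured by how many genes share a pair of counts (log scale); the dashed line marks equal counts. The cloud follows the line, and the points with a name are the genes given in the text for their large differences.

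H3K27ac was absent at the ends by the rule, and wider windows show what lay beyond. Within 50 kb of an end, 1966 genes (49.0%, 47.4 to 50.5) had an H3K27ac summit at 15 µM, against 51.2% of all genes. At 0 µM 2612 (65.0%, 63.5 to 66.5) had one, against 65% of all genes. The median distance was 52.1 kb at 15 µM and 30.7 kb at 0 µM. Only at 15 µM was there one in 119 genes (2.96%), against 2.25% of all genes, and only at 0 µM in 765 (19.0%), against 16% of all genes. Neither list had one in 1285 (32.0%). The 15 µM list is the shorter, and with the 0 µM list cut to the same 29305 summits by score the counts were 201 only at 15 µM and 602 only at 0 µM. For the cut list the shares of all genes were not computed. What the length of the list and the dose each add was not tested.

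Genes with H3K4me1 in both lists lay nearer to H3K27ac than other unacetylated genes. With H3K4me1 in one list only, 37.5% (36.0 to 39.1) had H3K27ac within 50 kb at 15 µM and 51.0% (49.4 to 52.6) at 0 µM. With neither mark the shares were 20.5% (19.4 to 21.6) at 15 µM and 30.1% (28.9 to 31.4) at 0 µM. The same order held at 5, 10, 20 and 100 kb at both doses. Within 5 kb, 6.77% of the genes described here had H3K27ac at 15 µM and 11.0% at 0 µM, against 1.42% at 15 µM and 2.51% at 0 µM for genes with neither mark. Genes with neither mark also lie in sparser stretches, with a median of 1 H3K4me1 summit within 10 kb at each dose.

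**Figure D5:**
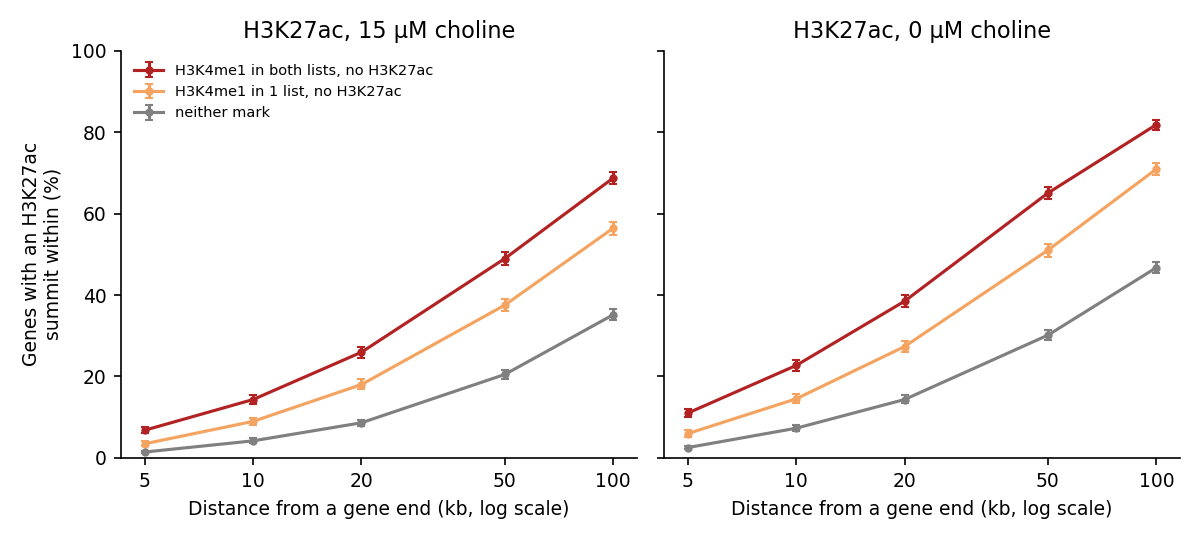
Share of genes (%) with an H3K27ac summit within 5 to 100 kb of an end at 15 µM choline (left) and 0 µM choline (right), for genes with H3K4me1 in both lists and no H3K27ac at an end (red), with H3K4me1 in 1 list (orange) and with neither mark (grey); bars are exact 95% intervals for counting error. At 50 kb the red points stand at 49.0% at 15 µM and 65.0% at 0 µM, above the others at every distance.

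Some unacetylated ends lay in dense acetylated surroundings. KIF3B, a kinesin motor subunit of cilia, had 29 (15 µM) and 28 (0 µM) H3K27ac summits no more than 50 kb away, the nearest 2.23 kb away at 15 µM and 7.25 kb away at 0 µM. FILIP1L, a filamin-interacting protein gene, had 27 at 15 µM and 24 at 0 µM. Its H3K4me1 ranked at 96.9 at 15 µM and 98.9 at 0 µM. RAD51D, a DNA repair gene, had 22 at each dose. EIF3K, a subunit of a translation initiation factor, and SCARB1, the receptor that takes up high-density lipoprotein cholesterol into liver, had 22 at 15 µM and 21 at 0 µM each. All 5 held nearly the same number at both doses. They were chosen for the most summits over both lists, so nothing about dose is read from that. The annotated ends are the outermost of each gene, so an acetylated inner start of the same gene would not be seen as one of its ends.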

How the data were processed

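Summit lists of 4 ChIP-seq libraries of Huh7 cells were used, 1 for each of H3K27ac and H3K4me1 at 15 µM and 0 µM choline. The series lists 12 samples, and the other 8 were not analysed here. Each file gives 1 summit per line and a score. In files of this MACS2 layout the score the authors deposited is on a −log10 scale, of p or of q. Which of these, the peak-calling settings and read depth are not given in the sources used here. MACS2, Bowtie, Picard and deepTools are named, with the build hg38, in the submitters' processing notes, and no version is given. List length depends on sequencing depth and enrichment as well as on the mark, and a broad marked stretch can be split into several summits.

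Summits on 23 chromosomes were kept and written 1-based. On the other sequences, 27 H3K27ac and 429 H3K4me1 summits were left out at 15 µM and 38 and 422 at 0 µM. Gene ends came from a RefSeq table of GRCh38.p14, which gives no strand. Strand, start and promoter sequence came from a RefSeq promoter table for 15812 genes, none of them on chromosome 8, where a gene with several starts was given the one nearest its outermost end. Of the H3K4me1 summits, 34.5% at 15 µM and 33.8% at 0 µM have one of the 5 commonest scores, so percentiles are coarse.

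Shares have exact Clopper-Pearson 95% intervals. Intervals cover counting error only and treat genes as independent. The interval of the median CpG ratio is from order statistics. No p-value was computed, since each group holds 1 library and the genes were chosen on these lists. Dose differences are the 15 µM count minus the 0 µM count times 1.02, the ratio of list lengths.

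The genes, families, markers and motifs were chosen with earlier results of these data known. The text names the 8 genes of highest percentile, the 5 with the largest difference in each direction, the 5 with most H3K27ac within 50 kb, the 2 of highest percentile in each family and the genes at each limit. Within the first 3 groups, a gene within 200 kb of one already taken was passed over. Others were chosen after their values were seen. Some genes the rule picks are not reported here. The scripts were tested on simulated data. Python 3.11.15, pandas 2.3.3, numpy 2.4.6, scipy 1.17.1 and matplotlib 3.10.9 were used.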

Additional observations from a re-analysis of the deposited data

How the results depend on the processing

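The number of genes depended on the limits. It was 1546 with H3K4me1 within 500 bp of an end, 6877 within 2 kb, 855 with H3K4me1 scores of at least 5, 146 with both H3K4me1 lists cut to the length of the H3K27ac list at 0 µM, 2341 at the annotated start only and 1054 with 1 gene per 200 kb. It stayed within 1.5 times of 4016 at 4428, 3478 and 2979 with the H3K27ac limit at 1, 5 and 10 kb, and at 2918 with the summits of both lists within 500 bp. Genes with 2-fold more and 2-fold fewer H3K4me1 summits at 15 µM numbered 117 and 141 within 20 kb, and 578 and 574 at a 1.5-fold limit. With scores of at least 5, 166 had more and 132 fewer. The shares of all genes were not computed under these settings, so the counts describe only the genes chosen here. The scaled difference turned to -0.918 for CABCOCO1, 1.21 for RAI14 and 0.0412 for SMU1 at those scores. The share with H3K27ac was 25.9% at 15 µM and 38.5% at 0 µM within 20 kb, 68.8% at 15 µM and 81.8% at 0 µM within 100 kb, and 58.9% at 0 µM with that list cut. The median CpG ratio was 0.742 and 0.749 in its alternatives. The cause of these shifts was not tested.

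Families were compared with all genes under 3 settings chosen after seeing the data, in percentage points. With scores of at least 5 the difference was 0.125 for developmental factors, -2.01 for cadherins, 0.265 for collagens, -0.254 for keratins, -4.28 for cancer-testis antigens, 0.941 for solute carriers, -3.03 for ribosomal proteins, -2.20 for proteasome subunits and -2.89 for histones. With H3K4me1 within 500 bp it was -5.47 for cadherins, 1.35 for collagens, -2.37 for keratins, 1.40 for solute carriers, -2.74 for ribosomal proteins and -3.57 for proteasome subunits. With no H3K27ac within 10 kb it was 10.1 for collagens, -4.18 for keratins, 2.58 for solute carriers and -8.66 for proteasome subunits. In these cases the direction held and the interval then included the share of all genes. Olfactory receptors stayed below under all 3 settings.

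No paired analysis was possible because each mark and dose had 1 library and the labels give no replicate numbers. Read depth is unknown. One library per group, no strand for genes of chromosome 8, and lists of only H3K27ac and H3K4me1, with expression not analysed here, limit what can be shown.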

Other observations

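Other gene groups carried H3K4me1 without H3K27ac at shares whose intervals included the 20.1% of all genes. Axon guidance genes had 20 of 68 (29.4%, 19.0 to 41.7), among them SEMA4F, a semaphorin whose summit ranked at 95.8 at 15 µM and 95.01 at 0 µM. Voltage-gated ion channel subunits had 17 of 80 and neurotransmitter receptors 18 of 99. CHRNA1, the acetylcholine receptor subunit of muscle, ranked at 96.3 at 15 µM and 98.5 at 0 µM, with H3K27ac 294.9 kb away at 15 µM and 297.0 kb away at 0 µM. Among immune genes, interleukins and their receptors had 18 of 85 and chemokines and their receptors 14 of 63. IL7R, the interleukin-7 receptor of lymphocytes, ranked at 96.2 at 15 µM and 99.0 at 0 µM, and CCL15, a chemokine made by liver and gut, at 95.9 at 15 µM and 95.01 at 0 µM. Zinc finger genes named ZNF had 93 of 509 (18.3%, 15.0 to 21.9).

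By chromosome, the share ran from 8.84% (7.02 to 11.0) on X, with 75 of 848 genes, to 24.6% (20.7 to 28.9) on 22, with 111 of 451. Chromosome 16 had 24.4% (21.5 to 27.4) and chromosome 21 had 13.0% (8.99 to 17.9). Copy number of this cancer line along the genome was not analysed here.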
